A study of Rattus norvegicus with 8 samples.

Results

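Class I odorant receptor genes, families 51 to 56 of the receptor nomenclature, were followed in rat liver. They were picked by gene symbol from the probes whose accession matched a RefSeq gene, which gave 114 probes for 113 genes among 41012 probes on the array. The RefSeq gene table of assembly GRCr8 lists 167 such genes, all on chromosome 1, of which 27 are pseudogenes, so 67.7% of them had a probe. All 114 probes were for protein-coding genes. Liver RNA came from male Wistar/ST rats that were all kept for 5 weeks on a diet high in fat, with fructose-rich water to drink. In the Eucommia group (4 arrays) the rats also drank an extract of Eucommia ulmoides leaves, and in the Control group (4 arrays) they did not. The labels describe liver of each rat but give no rat number, so the p-values cover only the spread among these arrays, which may be partly technical.

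Odorant receptors are G protein-coupled receptors of the sensory neurons of the nose. A neuron there settles on a single receptor gene, and the receptor signals through the G protein subunit Gnal, the adenylyl cyclase Adcy3 and a cyclic nucleotide-gated channel. Class I receptors resemble those first described in fish, and many respond to carboxylic acids and other polar odorants. Their genes lie in a compact cluster that surrounds the hemoglobin beta genes, and most have a coding region without introns. Some members are also transcribed outside the nose. Human OR51E1, for example, is known from the prostate.

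Each group filled its own slide, with its own scan session. For that reason slide cannot be told apart from group. Among all probes, 68.9% to 71.4% were well above background, the scanner software's flag for a measured spot, on the Eucommia arrays, against 58.4% to 61.0% on the Control arrays. The processed signal, which is background-subtracted, has a floor that also differed. The lowest signal of an array was 1.17 ± 0.03 raw units on the Eucommia arrays and 2.51 ± 0.21 on the Control arrays (SD, n = 4). The lowest signal marked as well above background was 5.90 ± 0.15 on the Eucommia arrays and 12.7 ± 1.05 on the Control arrays. A probe at the floor therefore comes out lower on the Eucommia arrays by its construction. Hepatocyte markers were bright on all arrays: all 13 probes for 10 marker genes were well above background on every array, with a median log2 signal of 8.72 relative to the 75th percentile of the array. Of these 13, 0 were higher and 2 lower by limma, beside 17.4% and 6.46% of all probes tested. The 2 were a probe of Alb at -0.42 (adjusted p = 0.0128 by limma) and Tf at -0.55 (adjusted p = 0.00692 by limma).

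More class I receptor probes were detected on the Eucommia arrays than on the Control arrays. On Eucommia arrays 1 to 4, 61, 59, 52 and 55 of the 114 probes were well above background, against 17, 24, 13 and 18 on Control arrays 1 to 4. The groups did not overlap. In percent this was 49.8 ± 3.54 on the Eucommia arrays and 15.8 ± 3.99 on the Control arrays (SD, n = 4). Class II receptors, the larger class of families 1 to 14, had 41.7% ± 1.78 of their 927 probes above background on the Eucommia arrays and 13.8% ± 2.27 on the Control arrays. A probe could be detected in every Eucommia array and in no Control array: this held for 24 class I probes (21.1%), 176 class II probes (19%) and 5.31% of all probes. The opposite pattern held for 0 of the 114 class I probes and 0 of the 927 class II probes, beside 3 of all 41012 probes (0.00731%). In liver tissue, fewer cells of a type and less RNA per cell cannot be told apart.

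**Figure D1:**
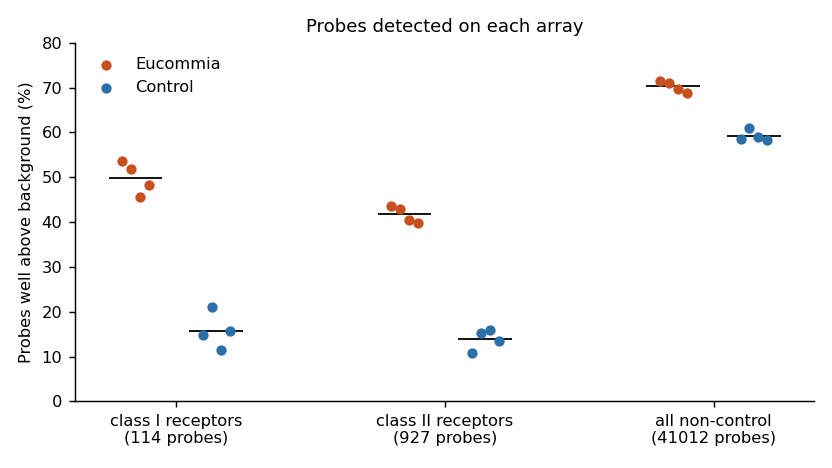
Share of probes flagged well above background on each array, in percent, for class I receptors, class II receptors and all non-control probes. Each point is an array, Eucommia left of Control, and the bars are the means: 49.8% against 15.8% for class I and 70.2% against 59.2% for all probes.

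Beside these 24, the other class I probes fell into groups by the same flags. On all 8 arrays 11 were detected (9.65%, beside 54.5% of all probes). A further 13 were detected on all 4 Eucommia arrays and on 1 to 3 Control arrays (11.4%, beside 6.41%). Another 15 were detected on 1 to 3 Eucommia arrays and no Control array (13.2%, beside 6.11%). Some arrays of both groups detected 3 (2.63%, beside 2.29%), and Control arrays alone detected 5 (4.39%, beside 2.09%). The other 43 (37.7%) were not detected on any array, beside 23.3% of all probes and 49.1% of class II probes. The median signal of these 43 was 1.41 to 1.49 raw units on the Eucommia arrays and 2.58 to 3.06 on the Control arrays, near the floor of each slide. By families, 25 of 40 probes of family 51, 41 of 66 of family 52, 2 of 2 of family 55 and 3 of 6 of family 56 were detected on at least 1 array, beside 76.7% of all probes.

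Spot brightness without a floor gave a view of all 114 probes. It was taken as the median pixel signal of the spot minus its local background, minus the median of the same quantity over the 153 negative-control spots of the array, a scale chosen after the values were seen. That subtracted median was 5.25 ± 0.65 raw units on the Eucommia arrays and 17.8 ± 2.25 on the Control arrays (SD, n = 4). Small differences on this scale, such as Or52e7 at 9.13 against -0.50, therefore depend on the subtraction. On this scale every Eucommia array lay above every Control array for 41 class I probes, against 11.1% of all probes on the array. Of the 41, 32 were also called higher in the fit over all tested probes and 9 were too dim to be tested (Or51g2, Or52s1, Or51b6b, Or51b17, Or52h2, Or52n2, Or52e18, Or52e7 and Or52e4). Every Control array lay above every Eucommia array for 8, against 15.3% of all probes. The floored processed signal gave 41 and 27, beside 14.3% and 20.8% of all probes, and 24 of those 27 were not detected on any array. The 8 probes that stayed above on the Control arrays were those of Or55b4, Or52m2, Or51a41, Or52s20, Or52a5b, Or52a5, Or52d1 and Or56b2b, all chosen by these values. Of these, Or55b4 had 5.25 ± 2.18 raw units on the Eucommia arrays and 16.3 ± 3.88 on the Control arrays (SD, n = 4), and Or56b2b had 1.13 ± 1.38 raw units on the Eucommia arrays and 7.50 ± 2.55 on the Control arrays (SD, n = 4). For comparison, Or52r1c had 76.3 ± 9.88 raw units on the Eucommia arrays and 3.75 ± 4.73 on the Control arrays (SD, n = 4).

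**Figure D2:**
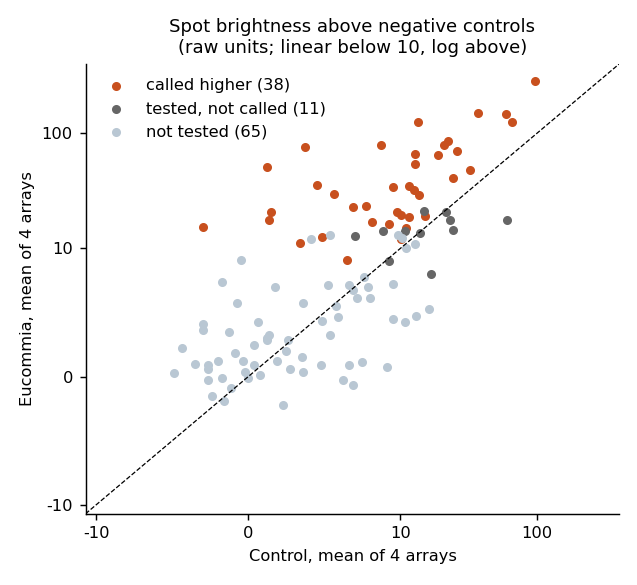
Mean spot brightness above the negative-control spots (raw units) on the 4 Eucommia arrays against that on the 4 Control arrays for each of the 114 class I probes; both axes are linear below 10 and logarithmic above, and the dashed line marks equal values. The 38 probes called higher lie above the line, with Or52p1 at 282.5 against 97.0 as the brightest.

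The 11 probes detected on all 8 arrays lie above the floor on both slides. With log2 signals relative to the 75th percentile of each array, 9 of the 11 were higher and 0 lower by limma among probes detected on all 8 arrays (adjusted p under 0.05), where 10.9% of 22352 probes were higher and 7.24% lower. At an unadjusted p under 0.05, 9 were higher and 0 lower. The median log2 fold change of the 11 was 1.60. Of class II probes in the same set, 68 of 84 (81%) were higher and 0 lower, with a median of 1.27.

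The probe of Or52p1 gave the highest signal of the class I probes on every array but Control array 4; signals of different probes do not order the levels of their genes. Its processed signal was 285, 258, 278 and 278 on the Eucommia arrays, against 97.8, 82.9, 94.3 and 105 on the Control arrays. It was the only class I probe above the 75th percentile of an array, on the 4 Eucommia arrays, and the log2 fold change was 1.66 ± 0.09 (SE; adjusted p = 4.57e-06 by limma). Or51a25 had 205, 174, 165 and 170.1 on the Eucommia arrays, against 48.6, 64.4, 66.5 and 79.5 on the Control arrays, with a log2 fold change of 1.60 ± 0.18 (SE; adjusted p = 0.000173 by limma). Or52x1 had 142, 138, 154 and 118 on the Eucommia arrays, against 33.5, 33.4, 31.3 and 35.5 on the Control arrays, a difference of 2.16 ± 0.10 (SE; adjusted p = 2.64e-06 by limma). All Eucommia arrays lay above all Control arrays for these 3 receptors, as they did for 18.8% of all tested probes.

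Or52e15c had 144, 131, 137 and 129 on the Eucommia arrays, against 56.6, 74.7, 61.1 and 57.6 on the Control arrays, and its log2 fold change was 1.24 ± 0.14 (SE; adjusted p = 0.000235 by limma). Or52s6 had 95.4, 88.02, 60.7 and 69.6 on the Eucommia arrays, against 15.2, 16.4, 16.4 and 21.1 on the Control arrays, with 2.30 ± 0.17 (SE; adjusted p = 1.77e-05 by limma). Or51f23c had 83.6, 77.3, 57.1 and 57.3 on the Eucommia arrays, against 14.7, 15.3, 16.1 and 18.7 on the Control arrays, with 2.20 ± 0.15 (SE; adjusted p = 1.28e-05 by limma). These dimmer receptors again separated the groups fully, as did Or52ae8, whose signal ran 59.05 to 83.8 on the Eucommia arrays and 15.5 to 24.1 on the Control arrays and whose log2 fold change was 1.90 ± 0.16 (SE; adjusted p = 3.92e-05 by limma).

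The other 4 had smaller differences. Or56a5, of family 56, had 39.1, 34.4, 38.4 and 38.2 on the Eucommia arrays, against 19.5, 20.7, 22.4 and 24.5 on the Control arrays, a log2 fold change of 0.91 ± 0.12 (SE; adjusted p = 0.000515 by limma). Or52k1 had 48.1, 41.7, 50.4 and 45.04 on the Eucommia arrays, against 33.1, 35.3, 31.02 and 28.5 on the Control arrays, a log2 fold change of 0.66 ± 0.12 (SE; adjusted p = 0.00374 by limma). Both were called higher with no overlap. Or52s20 had 16.4, 16.6, 15.2 and 18.3 on the Eucommia arrays, against 18.1, 27.4, 22.1 and 22.2 on the Control arrays, with -0.29 ± 0.18, and Or52a5 had 12.9, 10.5, 14.4 and 18.5 on the Eucommia arrays, against 19.2, 26.2, 21.5 and 16.7 on the Control arrays, with -0.46 ± 0.23. Neither passed (adjusted p = 0.28 and 0.2004 by limma), and in both the groups overlapped by a single array. Under quantile normalization both were called lower, at -0.58 and -0.72.

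**Figure D3:**
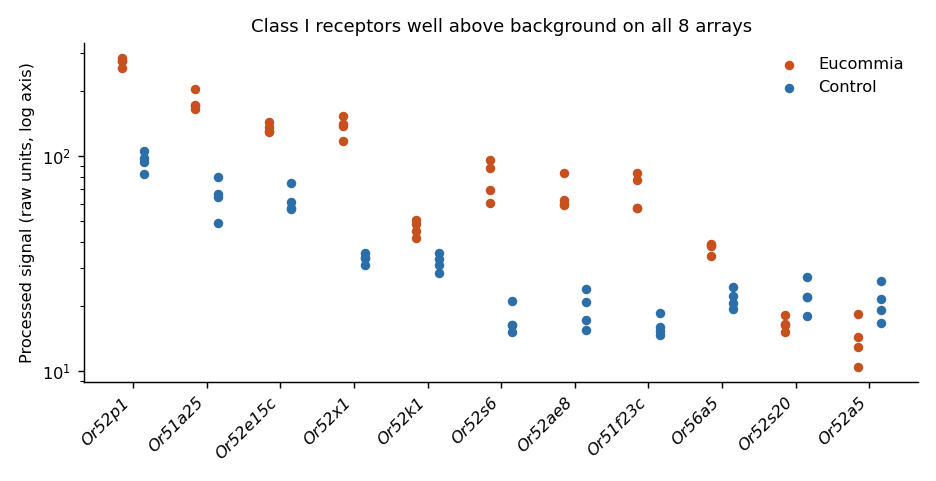
Processed signal in raw units (log axis) of the 11 class I receptor probes well above background on all 8 arrays, ordered by mean signal; each point is an array, Eucommia left of Control. In 9 of the 11 the Eucommia arrays lie wholly above the Control arrays, and in Or52s20 and Or52a5 the groups overlap. Of all tested probes, a wider set than those detected on all 8 arrays, 18.8% had every Eucommia array above every Control array on the log2 scale.

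Across all probes detected on at least 4 of the 8 arrays, 27717 were tested, 49 of them for class I receptors. Of the 49, 38 were higher in the Eucommia group and 0 lower, and 11 did not pass, where 17.4% of all probes tested were higher and 6.46% lower. At an unadjusted p under 0.05, 40 were higher and 0 lower. Quantile normalization, median centring and cyclic loess gave 34, 36 and 36 higher and 3 lower, the 3 being Or52d1, Or52a5 and Or52s20. Of all calls, 72.9% were higher, against 56.3%, 29.7% and 62.8% under these 3 scalings, and median centring moved the median of all probes by -0.26 on the log2 scale. The filter has a part in the count: 24 of the 49 entered through the Eucommia arrays alone, with no Control array above background. The lowest detected signal was lower on the Eucommia slide, so equal signals can also give this pattern. Of the 24, 23 were called higher, and of all 2176 tested probes with this pattern 73.3% were. Of the 25 detected on at least 1 Control array, 15 were called higher. Normexp background correction gave 31 higher and 0 lower, beside 13.7% and 6.66% of all probes tested. Among the 38 called, 36 had every Eucommia array above every Control array, which held for 18.8% of all tested probes. The reverse held for 0 of the 49, beside 9.32% of all tested probes. With every probe kept and no filter, 42 of the 114 were higher and 26 lower, beside 13.7% and 19.4% of all 41012 probes, and 25 of the 26 lower probes were detected on no array.

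Dim probes in general were more often higher on the Eucommia slide. Of all tested probes with a mean log2 signal up to -4, 39.7% were higher and 4.94% lower, and from -4 to -2 it was 27.2% and 6.88%. The class I receptors had 19 of 27 and 15 of 18 higher in these ranges, with medians of 1.55 and 1.97 on the log2 scale, against 0.55 and 0.09 for all probes there. From -2 to 0, 4 of 4 were higher, where 15.3% of all probes were higher and 7.21% lower. No class I probe lay above 0, where 3.67% of all probes were higher and 6.18% lower. Class II receptors had 135 of 172, 111 of 127 and 26 of 30 higher in the same ranges. Over all levels of tested probes the median log2 fold change was 1.61 for both classes, beside 0.01 for all probes tested. With every probe kept and no filter it was 0.38 for class I and 0.13 for class II, beside -0.09 for all probes, and under normexp it was 0.33 for the tested class I probes. In the filtered set 276 of 339 class II probes (81.4%) were higher and 0 lower. No difference between the classes was tested. The part of dim signal or of the slide in these counts was not tested.

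**Figure D4:**
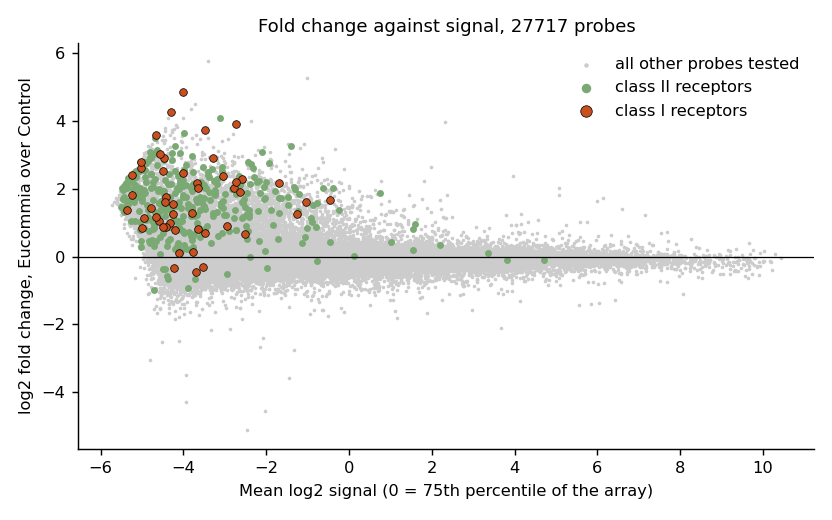
Log2 fold change, Eucommia over Control, against the mean log2 signal of each of the 27717 tested probes (0 is the 75th percentile of an array). Class I receptors (49 points) and class II receptors (339 points) lie mostly above the zero line among the dim probes at the left, and no class I point lies right of 0.

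Or52r1c and Or52r1, the only members of their subfamily on the array, had the largest fitted log2 fold changes, an order that did not hold by bound or under normexp, where Or52n2f was first. Or52r1c had 71.7, 80.6, 73.6 and 57.6 on the Eucommia arrays, against 2.85, 2.34, 2.56 and 2.81 on the Control arrays. Or52r1 had 43.96, 53.2, 45.6 and 46.9 on the Eucommia arrays, against 2.92, 2.34, 2.63 and 2.82 on the Control arrays. The Control values of both lay at the floor of their arrays, so the fitted changes of 4.86 ± 0.11 (SE; adjusted p = 1.53e-07 by limma) and 4.27 ± 0.10 (SE; adjusted p = 1.70e-07 by limma) depend on that floor. Taking the higher of the probe's own signal and the lowest signal well above background on each Control array, Or52r1c was at least 6.08-fold higher and Or52r1 at least 4.09-fold higher, against at least 10.6-fold for Or52n2f. Such bounds are approximate, because the flag has no single cut. Or55b4 was not detected on Control array 4 at 16.5, above the lowest signal of 13.7 marked as well above background there. With normexp background correction, which adds an offset and shrinks dim changes, the log2 fold changes were 1.18 for Or52r1c and 0.93 for Or52r1, with 1.41 for Or52n2f, 1.23 for Or52p1 and 1.20 for Or52x1.

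Or52n2f stood out from its subfamily. Its processed signal was 144, 107, 159.7 and 91.4 on the Eucommia arrays, against 9.90, 9.54, 9.03 and 7.36 on the Control arrays, at least 10.6-fold higher, the largest bound among class I receptors. The fitted log2 fold change was 3.91 ± 0.18 (SE; adjusted p = 2.64e-06 by limma). Or52s19 had 59.97, 73.99, 76.2 and 66.02 on the Eucommia arrays, against 2.71, 18.2, 3.39 and 5.80 on the Control arrays. It was detected on Control array 2 only within its group, and its log2 fold change of 3.75 ± 0.55 (SE; adjusted p = 0.0011 by limma) rests on values near the floor.

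Or51v14 had 33.4, 31.4, 29.7 and 22.2 on the Eucommia arrays, against 2.78, 2.25, 2.75 and 2.75 on the Control arrays, at least 2.49-fold higher. Or52e19 had 61.9, 57.3, 60.98 and 57.8 on the Eucommia arrays, against 5.92, 7.14, 10.8 and 11.7 on the Control arrays, at least 5.14-fold higher. Or55b10 had 28.7, 25.3, 27.6 and 19.96 on the Eucommia arrays, against 2.70, 2.32, 2.77 and 7.62 on the Control arrays, at least 2.17-fold higher. None of the 3 was detected on a Control array. Or51a42 ran 24.5 to 27.4 on the Eucommia arrays and 2.67 to 5.84 on the Control arrays (at least 2.24-fold). Or51b4 ran 15.6 to 18.6 on the Eucommia arrays and 2.35 to 2.83 on the Control arrays (at least 1.46-fold), and Or52e5 ran 14.4 to 17.7 on the Eucommia arrays and 2.72 to 3.06 on the Control arrays (at least 1.39-fold). The fitted log2 fold changes of these 6, in the order named, were 3.58, 2.92, 3.02, 2.91, 2.80 and 2.61, with adjusted p by limma between 6.31e-07 for Or51b4 and 0.000175 for Or55b10. None of the 6 was detected on a Control array. Their fitted changes and p-values therefore rest on Control values below detection, several of them at the floor.

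Families 51 and 52 both had most of their tested probes called higher. In family 51, 13 of 15 tested probes were higher, with a median log2 fold change of 2.18, and in family 52, 23 of 32 were, with a median of 1.40. Among all tested probes 17.4% were higher and 6.46% lower. Of the 15, 9 entered the test through the Eucommia arrays alone, and of the 32, 14 did. Of all tested probes with that pattern, 73.3% were called higher. With every probe kept, the medians were 0.46 over 40 probes of family 51 and 0.67 over 66 of family 52, the reverse order. Family 51 then had 14 higher and 11 lower, and family 52 had 26 higher and 13 lower. Of all 41012 probes, 13.7% were higher and 19.4% lower in that setting. The single tested probes of family 55 (Or55b10) and family 56 (Or56a5) were both higher. Or52l1, the single gene with 2 probes, was detected on 1 and 3 Eucommia arrays by them and on no Control array, and neither probe was tested. Altogether 42 subfamilies were on the array, 27 had a tested probe and 23 had a probe called higher. In 6 subfamilies no probe was detected on any array: Or51ab, Or51ac, Or51k, Or51s, Or52j and Or52u, named here after their values were seen.

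Within subfamilies the members differed widely. Among all tested probes 17.4% were higher and 6.46% lower, beside which the counts of tested probes here stand. Or52e was the largest, with 14 probes, of which 4 were tested and all 4 were higher. With every probe kept, 6 of the 14 were higher and 2 lower, beside 13.7% and 19.4% of all probes, and the median log2 fold change was -0.25. The 4 tested probes ranged from Or52e15c (1.24) to Or52e19 (2.92). Or52n had 11 probes, 5 tested and 3 higher, from Or52n4 at 0.81 ± 0.23 (SE; adjusted p = 0.0331 by limma) to Or52n2f at 3.91. The signal of Or52n4 was 25.5, 19.1, 23.6 and 20.6 on the Eucommia arrays, against 9.59, 18.1, 14.7 and 14.1 on the Control arrays, and its call was lost in 11 of 20 alternatives. Or51a had 6 probes, 5 tested and 4 higher, from Or51a10 to Or51a42 (2.91). Or51a10 had 12.3, 6.81, 7.66 and 9.12 on the Eucommia arrays, against 5.34, 6.91, 7.94 and 2.82 on the Control arrays, a log2 fold change of 0.83 that did not pass (adjusted p = 0.123 by limma). Or52s had 5 probes, 4 tested and 3 higher, from Or52s20 (-0.29) to Or52s19 (3.75).

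Some receptors varied widely within a group, and those described here were chosen after their values were seen. Or51e1, whose human counterpart is the prostate receptor, had 22.9, 49.4, 16.8 and 47.6 on the Eucommia arrays, against 5.62, 5.36, 8.42 and 5.23 on the Control arrays. The Eucommia arrays fell into a lower pair and a higher pair, and all lay above the Control arrays. Or51e1 was detected on no Control array, so its fitted log2 fold change of 2.48 ± 0.38 (SE; adjusted p = 0.00136 by limma) rests on values below detection, and the bound was at least 2.67-fold. Or51i1 had 11.1, 31.8, 8.99 and 8.32 on the Eucommia arrays, against 2.85, 2.34, 2.61 and 2.81 on the Control arrays, with Eucommia array 2 well above the other 3. Or51aa2 had 39.96, 3.91, 2.87 and 5.65 on the Eucommia arrays, against 4.57, 3.02, 6.002 and 3.91 on the Control arrays: Eucommia array 1 was the only one detected, and the probe was not tested.

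Single Control arrays were high for other receptors, also chosen after their values were seen. Or52n2e had 15.2, 16.4, 13.4 and 14.5 on the Eucommia arrays, against 2.93, 2.36, 2.72 and 224 on the Control arrays. Control array 4 was the highest of the 8 arrays and the other 3 Control arrays were the lowest. The log2 fold change was 1.004 ± 1.31 (SE; adjusted p = 0.633 by limma). Without Control array 4 it passed (adjusted p = 1.06e-05 by limma), with the 3 remaining Control arrays at the floor and none detected, so no fold is given. Under normexp with all arrays the log2 fold change was -0.23. Or52z12 had 26.5, 14.3, 17.9 and 18.9 on the Eucommia arrays, against 40.8, 5.64, 2.73 and 3.86 on the Control arrays, again with 1 high Control array. Its log2 fold change was 1.55 (adjusted p = 0.152 by limma), and it passed without Control array 1 (adjusted p = 0.000538), with the remaining Control arrays not detected. Or52h7 and Or52n4d also passed when a certain Control array was left out: Or52h7 had 1.04 (adjusted p = 0.163) by limma, and an adjusted p of 0.0275 without Control array 4, and Or52n4d had 1.17 (adjusted p = 0.082) by limma, and an adjusted p of 0.00286 without Control array 1. In the other direction, 5 receptors called higher lost the call when certain single arrays were left out: Or51r1, Or52n4, Or52s1b, Or52h9 and Or52ab2b, with adjusted p of 0.0509 to 0.0858 by limma. Or52e51 was detected on Control array 4 alone (30.2), Or56a3b on Control array 1 alone (25.1) and Or51f2 on Control array 1 alone (21.9).

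The first 50 coding bases of related receptors, from RefSeq on GRCr8, show how close some members are. RefSeq windows were found for 101 of the 113 genes, and in all 101 the start codon began at base 251, so the last 50 bases of each window are coding sequence. Between members of a subfamily the median identity over these bases was 52% (174 pairs), and between subfamilies it was 36% (4876 pairs). The pairs below were chosen after the values were seen, as close relatives of which at least 1 was called higher, and capitals mark the bases that differ within a pair. The first pair is Or52r1 at chr1:166714042-166714091 (minus strand) and Or52r1c at chr1:166887023-166887072 (plus strand), both called higher, with 78% identity.
Or52r1: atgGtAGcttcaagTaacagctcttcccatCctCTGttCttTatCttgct
Or52r1c: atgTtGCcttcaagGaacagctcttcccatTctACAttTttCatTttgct
The next is Or52s19 at chr1:167155021-167155070 (minus strand) and Or52s6 at chr1:167169546-167169595 (minus strand), again both higher, which share 96%.
Or52s19: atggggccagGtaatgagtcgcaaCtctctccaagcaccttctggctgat
Or52s6: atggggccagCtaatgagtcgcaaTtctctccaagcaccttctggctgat

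Other close relatives differed in detection. Or51b4 at chr1:167729991-167730040 (minus strand) and Or51b4b at chr1:167721423-167721472 (minus strand) share all 50 bases. Or51b4 was called higher, while the processed signal of Or51b4b was 1.46, 1.38, 1.55 and 1.54 on the Eucommia arrays, against 2.98, 4.05, 2.91 and 3.19 on the Control arrays, near the floor throughout.
Or51b4: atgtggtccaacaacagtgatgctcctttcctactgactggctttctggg
Or51b4b: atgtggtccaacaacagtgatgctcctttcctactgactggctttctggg
Or52e5 at chr1:168841244-168841293 (plus strand) and Or52e5b at chr1:168873746-168873795 (plus strand) also share all 50. The signal of Or52e5 ran 14.4 to 17.7 on the Eucommia arrays and 2.72 to 3.06 on the Control arrays, and that of Or52e5b ran 1.46 to 2.54 on the Eucommia arrays and 2.56 to 3.16 on the Control arrays and was not detected on any array.
Or52e5: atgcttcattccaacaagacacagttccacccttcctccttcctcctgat
Or52e5b: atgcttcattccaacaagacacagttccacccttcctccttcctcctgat
Or55b10 at chr1:166296986-166297035 (minus strand) and Or55b4 at chr1:166279273-166279322 (minus strand) differ at 1 base. Or55b10 was called higher, while Or55b4 had 9.37, 9.47, 8.13 and 8.35 on the Eucommia arrays, against 10.7, 12.8, 13.6 and 16.5 on the Control arrays. Or55b4 was marked as detected on 3 Eucommia arrays and no Control array although its Control values were the higher ones; the lowest signal marked as detected was also higher on the Control arrays.
Or55b10: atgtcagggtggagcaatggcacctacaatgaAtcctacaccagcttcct
Or55b4: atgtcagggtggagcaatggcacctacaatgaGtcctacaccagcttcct
Or52ae8 at chr1:167415763-167415812 (minus strand) and Or52ae8b at chr1:167510053-167510102 (minus strand) share 80%, and Or51v8 at chr1:167493464-167493513 (minus strand) and Or51v8b at chr1:167400567-167400616 (minus strand) share 86%. The probes of Or52ae8b and Or51v8b were not detected on any array.
Or52ae8: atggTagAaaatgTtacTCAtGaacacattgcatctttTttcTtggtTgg
Or52ae8b: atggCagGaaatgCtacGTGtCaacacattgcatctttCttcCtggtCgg
Or51v8: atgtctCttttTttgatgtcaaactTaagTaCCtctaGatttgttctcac
Or51v8b: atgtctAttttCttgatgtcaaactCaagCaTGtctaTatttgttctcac
Or51v8 itself had 72.2, 57.02, 61.00 and 47.2 on the Eucommia arrays, against 9.08, 14.5, 14.5 and 11.7 on the Control arrays, with a log2 fold change of 2.39 ± 0.22 (SE; adjusted p = 5.78e-05 by limma). Probe sequences were not used here, so whether a probe also binds a close relative was not tested, and values within such a pair are uncertain in that sense. The same limit holds for other members that share all 50 bases, named after their values were seen. Or51a25 and Or51a39 share them and were both called higher. Or52e15, Or52e15b and Or52e15c share them too. Or52e15b and Or52e15c were called higher, while Or52e15 was detected on no array.

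Along chromosome 1 the receptors called higher were spread over the whole cluster. The 167 class I genes span 2.86 Mb, with 95 on one side of the hemoglobin beta genes and the rest on the other. On the first side 22 of 27 tested probes were higher, with a median log2 fold change of 1.75. On the far side 16 of 22 were higher, with a median of 1.49. Of all tested probes, 17.4% were higher and 6.46% lower. With every probe kept the medians were 0.377 on the first side and 0.375 on the far side. Of 61 probes on the first side 23 were then higher and 13 lower, and of 53 on the far side 19 and 13. Among all probes 13.7% were higher and 19.4% lower in that setting. In the order of measured genes the longest run of receptors called higher was 5 long, from Or52e19 over Or52ab2b, Or52ab4 and Or52ad1 to Or52s19. The longest run not tested was 8 long, from Or51l14 to Or51ac3.

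**Figure D5:**
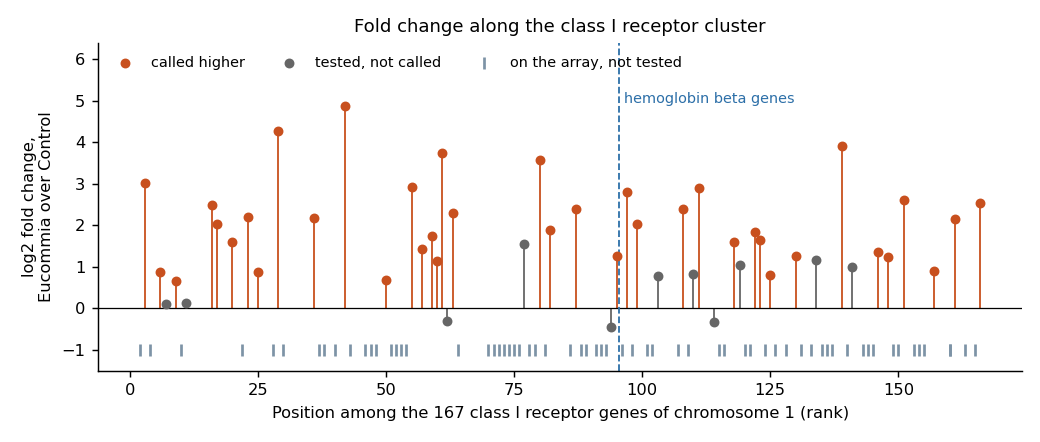
Log2 fold change, Eucommia over Control, of the 49 tested class I probes against the rank of their gene among the 167 class I genes of chromosome 1; ticks at the bottom mark the 65 probes that were not tested and the dashed line marks the hemoglobin beta genes. Receptors called higher, from 0.66 for Or52k1 to 4.86 for Or52r1c, occur along the whole cluster, with Or52r1c at rank 42 and Or52n2f at rank 139.

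Among the other genes inside the cluster the calls lay in the hemoglobin group. Of 47 genes that are no odorant receptors, 10 had probes, and of 8 probes tested 3 were higher and 0 lower, beside 17.4% and 6.46% of all tested probes. Their median log2 fold change was -0.30. The embryonic-type hemoglobin genes Hbg1, Hbe2 and Hbe1 were the 3, at 1.70 ± 0.29 (SE; adjusted p = 0.00242 by limma), 0.40 ± 0.10 (SE; adjusted p = 0.0203 by limma) and 1.32 ± 0.31 (SE; adjusted p = 0.0135 by limma). Hbe1 was detected on no Control array (bound at least 1.08-fold), and its second probe was not detected on any array. The adult hemoglobin genes Hbb-b1 and Hbb had -0.23 ± 0.15 (SE; adjusted p = 0.322 by limma) and -0.39 ± 0.17 (SE; adjusted p = 0.134 by limma), and the ubiquitin ligase genes Trim21 and Trim5 had -0.36 and -0.43. Ubqlnl, a ubiquilin-like gene, had -0.58 (adjusted p = 0.118 by limma). None of these 5 passed. At an unadjusted p under 0.05, 3 were higher and 3 lower.

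For genes that act with odorant receptors the share of calls lay near that of all probes. Of 35 listed genes 27 had probes, and of 21 probes tested 3 were higher and 2 lower, beside 17.4% and 6.46% of all tested probes. Their median log2 fold change was -0.00225. Ebf2, a transcription factor of olfactory neurons, rose, with a log2 fold change of 1.74 ± 0.13 (SE; adjusted p = 1.67e-05 by limma), though its second probe was not detected on any array. Gng13, a G protein gamma subunit, rose, with a log2 fold change of 1.14 ± 0.19 (SE; adjusted p = 0.00232 by limma). Reep1, which carries receptors to the membrane, rose at 1 of its probes, with 1.51 ± 0.17 (SE; adjusted p = 0.00021 by limma). That probe was detected on no Control array and was at least 2.20-fold higher by its bound, and the other probe was not detected on any array. Rtp3, a liver-expressed relative of the receptor transporters, fell, with -0.61 ± 0.11 (SE; adjusted p = 0.00368 by limma) and Ddit3, a stress-induced regulator, -0.56 ± 0.13 (SE; adjusted p = 0.0129 by limma). The transporter Rtp1 (0.28) and the cyclase Adcy3 (-1.73 ± 0.85) did not pass. Adcy3 was high on Control array 3 alone, and without that array it was called lower at -0.73 (adjusted p = 0.0132 by limma).

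Of the defining markers of olfactory sensory neurons, 3 were at background. The probes of Omp, the olfactory marker protein, and of the channel subunits Cnga2 and Cngb1 were not detected on any of the 8 arrays. Of 14 marker genes 10 had probes, and 4 of the 11 probes were detected on no array, beside 23.3% of all probes. Their summed level, in units of the 75th percentile, ran from 1.68 to 2.19 on the Eucommia arrays and from 1.16 to 2.66 on the Control arrays. A sum without Adcy3 was taken after the values of Adcy3 were seen. It ran from 1.63 to 2.16 on the Eucommia arrays and from 1.08 to 1.46 on the Control arrays. The groups did not overlap in this sum, while with all markers kept they did. The gene left out, Adcy3, had a negative log2 fold change (-1.73), so the separation rests on that choice. Every Eucommia array lay above every Control array for 18.8% of all tested probes. Lhx2 had the brightest of the 11 probes, with a mean log2 signal of -0.06 on the Eucommia arrays and -0.43 on the Control arrays. Its difference did not pass (adjusted p = 0.149 by limma). Of the 7 tested probes of these neuron markers 3 were higher and 0 lower, beside 17.4% and 6.46% of all tested probes. Gap43, a growth cone protein, was called higher beside Ebf2 and Gng13, with a fitted log2 fold change of 1.30 ± 0.12 (SE; adjusted p = 4.96e-05 by limma), but was detected on no Control array and lay below the Control detection level in both groups, so no fold is given by its bound. Among all tested probes 17.4% were higher and 6.46% lower, beside which the following marker counts stand. Erythroid markers summed to 186 to 286 on the Eucommia arrays and 253 to 331 on the Control arrays. Hbb-b1 led that sum, with a mean log2 signal of 7.83 on the Eucommia arrays and 8.06 on the Control arrays. Of 6 tested erythroid probes 0 were higher and 1 lower (Epb42, -0.65). Macrophage markers had 0 of 10 probes called, and all 10 had a negative log2 fold change, from -1.10 (Marco) to -0.15 (Csf1r), with a median of -0.51. Endothelial markers had 1 of 3 higher (Cdh5, 1.01), while Pecam1 (1.09) and the brighter Kdr (-0.26) did not pass. Of 7 testis probes 5 were detected on no array and 2 were tested. Of those 2, Prm1 was higher (1.31) and Prm2 (-0.20) did not pass. The part of such cells in the receptor values was not tested.

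Sequence motifs of olfactory promoters were searched in the 250 bases before the start codon, on both strands. The homeodomain core TAATGA was found in 33 of 101 windows (32.7%), beside 9.66% of the 33469 RefSeq windows of the same length, and TAATTA in 11 (10.9%), beside 4.86%. Among receptors called higher 14 of 34 held TAATGA (41.2%), and among those detected on no array 10 of 36 did (27.8%). For TAATTA it was 5 of 34 (14.7%) and 4 of 36 (11.1%). The palindromic Olf1/Ebf motif was found in 0 of 101 windows, beside 0.738% of all windows. TAATGA and TAATTA share their first 4 bases. Class I windows were richer in A and T, at a median of 64% beside 48.8% for all windows. The windows are set by the start codon and may lie away from the start of transcription, and a match is a description only.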

How the data were processed

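Liver RNA (500 ng per sample, per the labels' protocols) was hybridised to 8 Agilent 1-colour arrays. The deposited processed signal is an intensity on a linear scale, background-subtracted by Agilent Feature Extraction 10.1.1.1 with a floor for dim spots, per the file headers. The series value table, deposited by the authors as intensity, equalled it at 100% of 43379 non-control spots. Spots of a probe were averaged and log2 values were taken relative to the 75th percentile of each array. Probes well above background on at least 4 of 8 arrays (27717 of 41012) were tested with limma 3.58.1 in R 4.3.3 (lmFit, eBayes), each probe on its own, with Benjamini-Hochberg adjustment over all of them and a threshold of 0.05. Symbols came from accession matches to RefSeq GRCr8 (16336 probes, 39.8%).

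The members, gene lists and tests were chosen with earlier results of these data known. Genes were named if detected on all 8 arrays, among the 10 largest increases, or at the ends of a subfamily with at least 4 tested probes, and genes chosen after their values were seen are marked as such. The fit was tested on simulated data with 27693 probes. There it called 98% of changes of 2 on the log2 scale and 66% of changes of 1. It called 60% of changes of -1 and 20% of changes of 0.5. Only a small share of the simulated probes was changed, well under the share called in the data. Noise was drawn as normal, with no floor and no slide difference, so the rates describe that setting only. Whether these rates hold for dim probes near the floor was not tested. Precision is limited by the number of arrays. Alternatives covered normalization, background correction, filter, variance model, array weights, the replicate block and each array left out. Normexp used the median spot signal, the spot mean being not used here. The build of the array annotation differs from GRCr8, so coordinates are given only for the printed RefSeq sequences.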

Additional observations from a re-analysis of the deposited data

Results flagged for a closer look

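Of 102 groups of 4 arrays examined, 5 held an array whose gap to its nearest neighbour, as a share of the group's range on the log2 scale, exceeded Dixon's critical value, and chance gives about 1 in 20. For Or52ad1 Eucommia array 3 was highest (gap share 0.896, signal 13.8), for Or52ae8 Eucommia array 1 (0.895, signal 83.8) and for Or51i1 Eucommia array 2 (0.848, signal 31.8). For Or51a25 Control array 1 was lowest (0.836, signal 48.6). For Or52n2e Control array 4 was highest (0.972, signal 223.8). The causes were not tested.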

How the results depend on the processing

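Of 21 alternatives run, those leaving out 1 array called 33 to 38 class I probes higher (33 without Eucommia array 2) and 0 lower, with medians of 1.58 to 1.71; 33 to 38 of the 38 reported stayed called, 36 without Control array 1 and 34 without Control array 4, where 2 others were gained each time. On all 8 arrays 9 class I and 68 class II probes were higher. Class I probes called lower numbered 3 under quantile normalization, 3 under median centring, 2 under normexp with quantile normalization, 26 with no filter, 1 with array weights and 3 under cyclic loess, against 0 as reported. Class II lower calls were 6, 10, 4, 279, 2 and 5 under the same settings in that order, and 0 to 2 with an array left out. The class I median log2 fold change was 1.35 under median centring, 0.33 under normexp, 0.26 under normexp with quantile normalization and 0.38 with no filter. Olfactory signalling probes called lower were 6 under median centring and 9 with no filter. Cluster neighbours called higher were 1 under normexp and 1 under normexp with quantile normalization, and 2 to 3 with an array left out. Neighbours called lower were 2, 5, 1, 3, 1 and 2 under quantile normalization, median centring, normexp with quantile normalization, no filter, array weights and cyclic loess, and 0 to 1 with an array left out. Over all probes, calls were 4811 higher and 1790 lower as reported, 4335 and 3362 under quantile normalization, 3937 and 9300 under median centring, 5626 and 7937 with no filter and 4656 and 2755 under cyclic loess. The causes were not tested.

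Among 471 repeats for 23 named receptors none changed sign, 11 lost the call, all of Or52n4, and 8 gained one, of Or52s20 and Or52a5. Arrays with the same replicate number did not deviate together (correlations -0.114 to -0.025). With the replicate block 36 class I probes were higher and 0 lower, and Or52n4 lost its call (adjusted p = 0.0758 by limma). Slide as a block was not run, because each slide holds 1 group. Cyclic loess was chosen after seeing the data. Detection limits every value at the floor.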
